A study of Mus musculus with 6 samples.

Results

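Matrix metalloproteinases (MMPs), the ADAMTS proteases and their tissue inhibitors (TIMPs) were examined at the level of open chromatin. The genes were taken by name, as all protein-coding genes in the GENCODE annotation of mm10 whose symbol begins with Mmp, Adamts or Timp followed directly by a number. This rule gave 45 genes of 21853, namely 22 Mmp, 19 Adamts and 4 Timp genes. Chromatin accessibility had been profiled by ATAC-seq, which uses a transposase to tag open DNA, to ask whether the chromatin landscape of skeletal stem and progenitor cells (SSPCs) changes with age. The files held the called peaks of 6 libraries, 3 labelled young and 3 labelled middle-aged. Both groups were untreated C57BL/6 mice with no transgene, aged about 12 and about 52 weeks by the study's methods, and the SSPCs were marrow cells of tibiae and femora that had been plated on plastic and used at passage 1. Cells came from at least 3 mice, and the labels do not say whether a library held 1 animal or several, so the spread between libraries may be partly technical.

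A gene was counted as having a peak at its transcription start site (TSS) when a called peak overlapped the 1000 bp either side of any of its protein-coding TSSs. The strength of a peak was expressed as its percentile rank by −log10 q within the list of its own library, where 100 would be the strongest peak. Lists held 27628 to 48344 peaks, and the 3 middle-aged lists were the longest. Young 3 stood apart, with the shortest list and the lowest genome-wide background, 1.65 reads per base against 2.40 to 3.75 in the other libraries. It also had a TSS peak at only 3 of 10 stromal progenitor markers, against 7 or 8 in each other library. The summed rank of the 10 stromal markers ran from 124 to 307 in young and from 334 to 458 in middle-aged libraries. Lepr and Prrx1, which define these cells, had no TSS peak in any library, whereas Kitl, Foxc1 and Ebf3 had one in all 6. Macrophage markers were called at 8, 10 and 10 of 10 genes in young and at 9, 8 and 8 in middle-aged libraries. Their summed ranks were 354 to 475 in young and 512 to 545 in middle-aged libraries. Endothelial markers were called at 2 to 5 of 8 genes, with summed ranks of 113 to 133 and 118 to 195. Chondrocyte markers were called at 1 to 4 of 8, with 26.7 to 110 and 106 to 162. Neutrophil markers were called at 2 of 8 in each library (90.6 to 131 and 128 to 143) and T cell markers at 1 of 8 (17.5 to 63.8 and 73.7 to 78.1). In such mixed cultures, fewer cells of a type and less open chromatin per cell cannot be told apart. A marker without a peak added 0 to the summed rank. Of all genes called in all 6 libraries, 93.9% had a higher mean within-list rank in the middle-aged group. The summed ranks were not adjusted for this shift.

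MMPs are zinc-dependent enzymes that are made as inactive precursors and together cut most components of the extracellular matrix. ADAMTS proteases are secreted, bind the matrix, and include enzymes that trim procollagens or cut large proteoglycans. TIMPs bind the active site of these enzymes and block it. In bone, Mmp13 is the main collagenase of osteoblasts and hypertrophic chondrocytes, Mmp9 is made in quantity by osteoclasts, and Mmp14 is the membrane-bound enzyme that activates Mmp2.

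Promoter sequences are shown first for the group of 9 Mmp genes that lie side by side on chromosome 9, because the start sites of these related genes were called in all, some or no libraries. The sequences are those of RefSeq (GRCm38.p6), 5′ to 3′, and end at the last base before the start site. Where the RefSeq start lies inside the annotated gene, as for Mmp1b and Timp3, they end at the last base before the gene. Capitals mark matches, on either strand, to AP-1 (TGANTCA), RUNX (TGTGGT) and a TATA box (TATAAA). The 250 bases before the start of Mmp13 (chr9:7272264-7272513, plus strand), a TSS peak in all 6 libraries, were:
Mmp13: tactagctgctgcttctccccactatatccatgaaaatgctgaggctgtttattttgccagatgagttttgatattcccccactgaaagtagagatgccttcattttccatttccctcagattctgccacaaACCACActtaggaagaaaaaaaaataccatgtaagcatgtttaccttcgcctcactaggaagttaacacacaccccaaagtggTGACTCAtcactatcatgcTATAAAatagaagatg
The 110 bases before 5 neighbours with no TSS peak in any library were as follows, for Mmp1b (chr9:7388048-7388157, minus strand), Mmp3 (chr9:7445712-7445821, plus), Mmp10 (chr9:7502232-7502341, plus), Mmp20 (chr9:7628121-7628230, plus) and Mmp7 (chr9:7691980-7692089, plus):
Mmp1b: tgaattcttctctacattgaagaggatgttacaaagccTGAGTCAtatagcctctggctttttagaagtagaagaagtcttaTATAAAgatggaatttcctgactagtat
Mmp3: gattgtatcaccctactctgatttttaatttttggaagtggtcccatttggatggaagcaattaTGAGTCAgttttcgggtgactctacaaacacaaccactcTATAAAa
Mmp10: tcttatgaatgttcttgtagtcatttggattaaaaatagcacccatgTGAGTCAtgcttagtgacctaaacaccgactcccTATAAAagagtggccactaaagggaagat
Mmp20: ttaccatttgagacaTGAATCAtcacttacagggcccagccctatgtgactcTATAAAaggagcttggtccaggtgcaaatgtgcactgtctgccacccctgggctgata
Mmp7: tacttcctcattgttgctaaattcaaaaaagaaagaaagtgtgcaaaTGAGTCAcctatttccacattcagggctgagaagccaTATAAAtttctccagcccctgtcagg

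Counted from the RefSeq start, the match to AP-1 lay at −35 to −29 in Mmp13 and −46 to −40 in Mmp3. It lay at −63 to −57 in Mmp10 and Mmp7, −93 to −87 in Mmp1b and −95 to −89 in Mmp20. For Mmp1b this start lies inside the annotated gene, downstream of the last base shown, so its positions do not count from the end of the printed sequence. Mmp13 also held a RUNX match at −118 to −113 and a TATA box at −16 to −11. A RUNX match was not particular to it, since Mmp1b, called in no library, held one at −204 to −199, before the bases shown. Its ATAC-seq summits lay between −80 and −34 bp from the start, and the AP-1 match lay at the downstream edge of that range. The 5 neighbours shared both the AP-1 and the TATA letters with Mmp13 and had no called peak there. Mmp12 held an AP-1 match too, but in a window inside the annotated gene, which is not shown.

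The next 4 sequences show TIMP genes with a peak in many, some or no libraries and a protease start site with a high rank. They are Timp1 (chrX:20869916-20870165, plus strand), Timp3 (chr10:86300162-86300371, plus), Timp4 (chr6:115252206-115252455, minus) and Adamts17 (chr7:66839485-66839734, plus), with CpG dinucleotides in capitals:
Timp1: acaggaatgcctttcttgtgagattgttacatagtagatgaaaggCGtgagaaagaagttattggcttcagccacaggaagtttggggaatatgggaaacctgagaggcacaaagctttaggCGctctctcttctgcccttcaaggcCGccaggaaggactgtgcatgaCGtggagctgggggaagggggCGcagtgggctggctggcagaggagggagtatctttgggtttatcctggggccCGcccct
Timp3: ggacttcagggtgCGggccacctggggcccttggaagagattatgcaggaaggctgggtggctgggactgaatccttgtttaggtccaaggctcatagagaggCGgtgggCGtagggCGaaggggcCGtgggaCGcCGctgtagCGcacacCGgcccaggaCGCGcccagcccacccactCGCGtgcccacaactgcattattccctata
Timp4: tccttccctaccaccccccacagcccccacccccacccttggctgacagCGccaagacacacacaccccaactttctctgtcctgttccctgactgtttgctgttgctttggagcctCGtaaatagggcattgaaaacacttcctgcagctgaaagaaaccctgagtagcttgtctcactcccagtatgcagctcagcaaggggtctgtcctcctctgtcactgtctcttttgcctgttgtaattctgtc
Adamts17: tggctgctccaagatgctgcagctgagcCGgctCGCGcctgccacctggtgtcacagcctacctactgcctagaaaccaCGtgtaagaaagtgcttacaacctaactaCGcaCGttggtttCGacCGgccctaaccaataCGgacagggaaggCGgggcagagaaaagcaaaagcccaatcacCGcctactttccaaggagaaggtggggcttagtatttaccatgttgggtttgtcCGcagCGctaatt
Timp4, called in no library, had 2 CpGs in the 250 bases shown. Timp1, called in 5 libraries, had 6. Timp3 had 13 in the 210 bases shown, and the start that follows them was called in 2 libraries, the other calls of this gene being at a second start. Adamts17, called in all 6, had 13.

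Of the 45 genes, 9 had a TSS peak in all 6 libraries. These were Adamts3, Adamts6, Adamts7, Adamts10, Adamts17, Mmp11, Mmp13, Mmp17 and Timp2. A further 21 had one in some libraries: Adamts1, Adamts2, Adamts9, Adamts12, Adamts13, Adamts14, Adamts15, Adamts20, Mmp2, Mmp8, Mmp14, Mmp15, Mmp16, Mmp19, Mmp23, Mmp24, Mmp25, Mmp27, Mmp28, Timp1 and Timp3. The remaining 15 had none in any library, namely Adamts4, Adamts5, Adamts8, Adamts16, Adamts18, Adamts19, Mmp1b, Mmp3, Mmp7, Mmp9, Mmp10, Mmp12, Mmp20, Mmp21 and Timp4. Thus 20% of these genes were called in every library, against 48.4% of all protein-coding genes, and 33.3% in none, against 38.5%. Genes called in some libraries and not in others were 21 of 45 here and 2878 of 21853 over all.

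**Figure D1:**
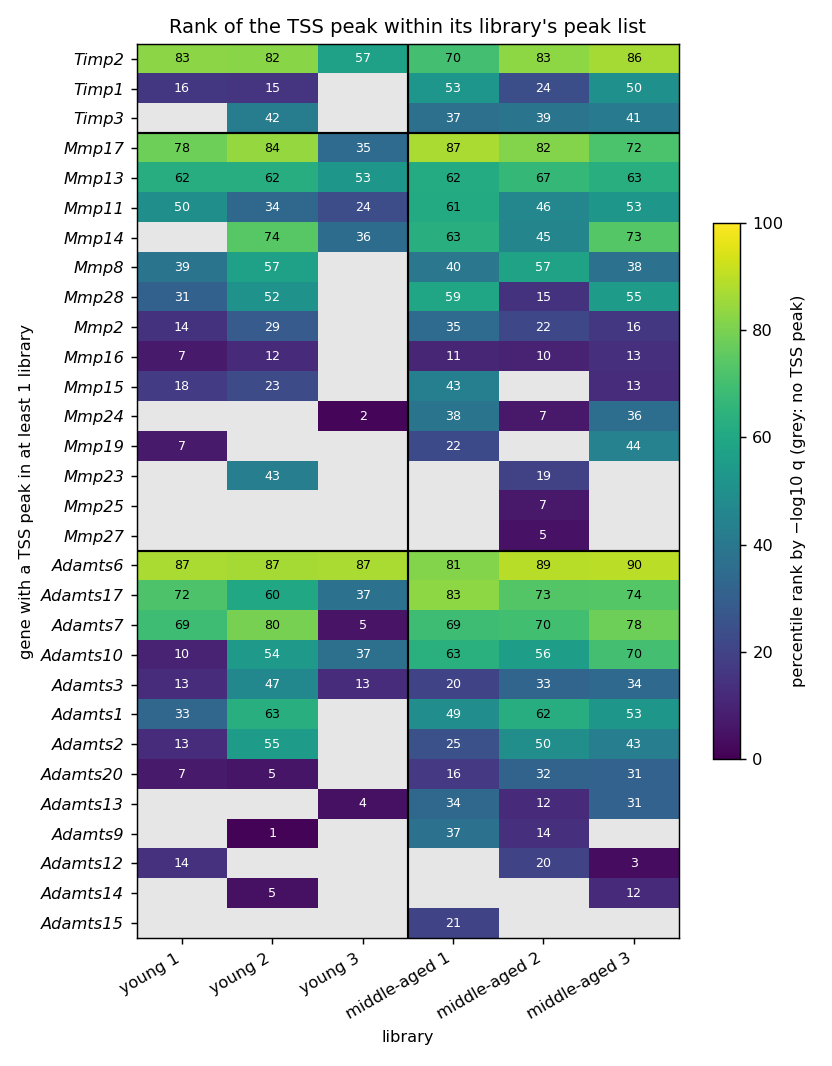
Percentile rank, by −log10 q within the library's own list, of the highest-ranking TSS peak of each of the 30 genes called in 1 or more libraries (rows, grouped as Timp, Mmp and Adamts) in the 6 libraries (columns), with grey for no TSS peak. Adamts6 lies between 81.4 and 89.6 in every library, while 8 genes are grey only in young 3.

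Counted by library, young 1 had 20 of the 45 genes called, young 2 had 23 and young 3 had 12. In the middle-aged libraries 25, 26 and 25 were called. Group means were 18.3 ± 5.69 genes (SD, n = 3) for the young and 25.3 ± 0.577 genes (SD, n = 3) for the middle-aged libraries, or 40.7% and 56.3% of the genes, against 53.6% and 57.6% of all protein-coding genes. Every middle-aged library held more called members than every young one, but the difference of 7 genes rested in large part on young 3 and was 3.83 without it. With equally long lists it was 0.333 genes. With lists thinned to the lowest background, an alternative chosen after seeing the data, the counts were 17, 22 and 12 against 25, 26 and 25. All protein-coding genes with a TSS peak then numbered 11508, 12336 and 10824 against 12481, 12517 and 12593. By family the counts were as follows. Mmp genes were called 9, 10 and 5 times in young and 11, 12 and 11 times in middle-aged libraries, Adamts genes 9, 10 and 6 against 11 in each, and Timp genes 2, 3 and 1 against 3 in each.

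**Figure D2:**
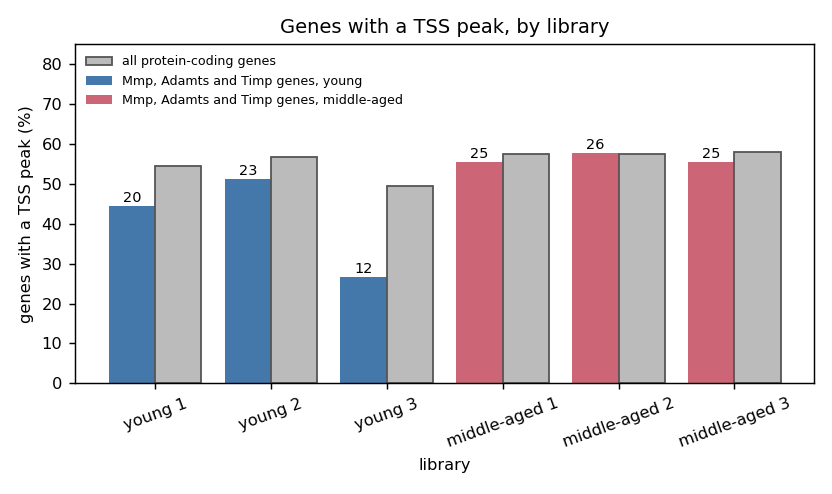
Share of genes with a TSS peak (%) by library, for the 45 Mmp, Adamts and Timp genes (coloured bars, with the number of genes above) and for all 21853 protein-coding genes (grey bars). The coloured bar is far below the grey one in young 3, at 12 genes, and close to it in the middle-aged libraries.

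Some genes were missing from young 3 alone. Adamts1, Adamts2, Adamts20, Mmp2, Mmp8, Mmp16, Mmp28 and Timp1 were missed in young 3 and called in the other 5 libraries. They were 8 of 45 genes (17.8%), while 844 of all protein-coding genes (3.86%) had this pattern. Their ranks in the other 5 lists ran from 5.49 for Adamts20 in young 2 to 63.1 for Adamts1 in young 2. After thinning, 6 of the 8 still had it (Adamts1, Adamts2, Mmp2, Mmp8, Mmp28 and Timp1). The low stromal marker count of young 3 moved with it, and its part in the result was not tested. The shares above were not matched for peak strength, and called members had a lower median rank than all called genes in every library.

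Between the ages, 3 of the 45 genes differed in presence by at least 2 libraries, each with more middle-aged ones. These were Timp3, Adamts13 and Mmp24, each with 1 young and 3 middle-aged libraries, although for Timp3 the calls were divided between 2 start sites. Of all protein-coding genes, 2.78% differed in this way, and 0.11% by as much in the opposite direction, where no Mmp, Adamts or Timp gene stood. A single gene cannot be called from presence alone, since the smallest two-sided exact p with 3 against 3 libraries is 0.1. With equally long lists the count was 1 in each direction. It was 13 without young 1 or without young 2 and 0 without any one middle-aged library. A fixed difference of 2 libraries is easier to reach with 2 young libraries and harder with 2 middle-aged ones. These counts therefore say nothing of any single library. The share of all genes was not taken at these other settings.

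Peaks of the protease and inhibitor genes were weak ones. Their median rank was 24.4, 51.5 and 35.1 in the young lists and 43.3, 35.6 and 44.5 in middle-aged 1, 2 and 3. The median over all genes with a TSS peak lay between 76.5 and 85.6 in every library. Between 47.8% and 75% of the called members ranked below 50, against 14.4% to 22.1% of all called genes.

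**Figure D3:**
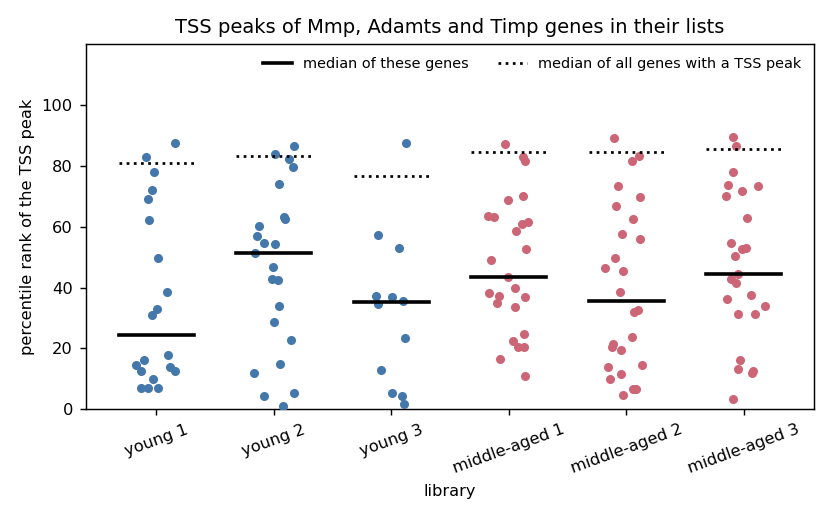
Percentile rank of the TSS peak of each called Mmp, Adamts and Timp gene (points) by library, with the median of these genes (solid line) and of all genes with a TSS peak (dotted line). In each library the solid line, at 24.4 to 51.5, is below the dotted line, at 76.5 to 85.6.

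Ranks were compared between the ages for the 9 genes called in all 6 libraries. The median of the middle-aged minus young difference was 14.6 points, and 8 of the 9 differences were positive. Over all 10569 genes called in all 6 libraries the median was 4.97 points and 93.9% were positive. The direction for the 9 genes did not hold on another scale. When ranks were taken among the genes called everywhere and so did not depend on list length, their median was −1.91 points and that of all genes −0.0237. Without young 3 the within-list median was 1.89, over the 17 members then called in all libraries, against 2.39 for all genes.

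The within-list ranks did not overlap between the groups for 2 of the 9 genes, Adamts10 and Adamts17, both higher in middle-aged libraries. Of all genes, 30.6% had such a gap in this direction and 0.274% in the other, where none of the 9 stood. Without young 3 the count was 4 of 17, where 32.8% of all genes had such a gap. Without middle-aged 1 it was 5 of 9 against 40.1% of all genes, and with ranks among the genes called everywhere 0 of 9 against 5.86%. In limma, fitted to normal scores of the ranks among genes called everywhere with Benjamini-Hochberg adjustment over all genes, 0% of the genes passed 0.05. At an unadjusted p under 0.05 there were 655 of 10569 genes and 0 of the 9. The lowest adjusted p among the 9 was 0.805, for Mmp13. The alternative that fitted normal scores of the within-list ranks called 1 gene, and the fit without young 3 called 2, none of them Mmp, Adamts or Timp genes.

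Among the collagenases, which cut fibrillar collagen, Mmp13 (ENSMUSG00000050578.10, chr9:7272514-7283331) was the most evenly called. Its TSS peak ranked 62.2, 62.4 and 53.0 in the young libraries, in the order of their numbers, and 61.7, 66.7 and 62.9 in the middle-aged ones. The groups overlapped, with young 3 lowest and middle-aged 2 highest. The mean was 59.2 ± 5.37 (SD, n = 3) and 63.8 ± 2.63 (SD, n = 3), a difference of 4.58 points (p = 0.3 by a two-sided exact permutation test). Without young 3 the difference was 1.49 points. On the scale of ranks among genes called everywhere it was −7.65 points, in the other direction (limma difference −0.349 ± 0.166 SE in normal scores, adjusted p = 0.805). The summit held 19 to 33 reads, 7.16 to 8.82 times the local background. Mmp8, the neutrophil collagenase, ranked 38.6 and 57.1 in young 1 and 2, had no TSS peak in young 3, and ranked 39.8, 57.5 and 37.6 in the middle-aged libraries. Mmp1b was called in none.

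The gelatinases, which cut denatured collagen and basement membrane collagen, had weak peaks or none at their start sites. Mmp2 (ENSMUSG00000031740.8, chr8:92827291-92853420) ranked 14.5 and 28.7 in young 1 and 2, was not called in young 3, and ranked 34.9, 21.6 and 16.3 in middle-aged 1, 2 and 3. Its values overlapped between the ages, and the summit held at most 21 reads. The highest-ranking peak was at the start itself (chr8:92827202-92827465) in young 2 and middle-aged 3 and about 1 kb before it (chr8:92826127-92826469) in the other 3 libraries with a call. Mmp9 (ENSMUSG00000017737.2, chr2:164940780-164955850) had no TSS peak in any library. A region within an intron of Mmp9, with its near edge 2010 bp from the start site, was nevertheless called in all 6. Its ranks were 45.4, 81.0 and 61.0 in young and 66.9, 72.1 and 63.6 in middle-aged libraries, and the groups overlapped.

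Mmp2 likewise was more open inside the gene than at its start. Of the 7 regions in Mmp2, 3 away from the start were called in all 6 libraries. The strongest lay near the end of the gene (chr8:92853124-92853529, an untranslated exon) with ranks of 77.9, 76.9 and 78.1 in young and 79.6, 83.4 and 74.9 in middle-aged libraries. An intronic region (chr8:92847304-92847755) ranked 72.3, 64.5 and 47.4 in young and 82.6, 72.4 and 71.0 in middle-aged libraries. Both ranked far above the TSS peak of the same gene in each library where that was called.

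Of the stromelysins, Mmp3 and Mmp10, which cut proteoglycans and activate other MMPs, were called in no library. Mmp11 was called in all 6, at ranks of 49.7, 33.8 and 23.6 in young and 61.0, 46.4 and 52.8 in middle-aged libraries. Only middle-aged 2 fell within the range of the young libraries (p = 0.2 by a two-sided exact permutation test). The Mmp11 peak also reached the TSS window of Chchd10, a neighbouring gene on the opposite strand, in all 6 libraries, so it cannot be assigned to Mmp11 alone. The other 29 called members shared their TSS peaks with no other protein-coding TSS. The matrilysin Mmp7 was called in none.

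The 6 membrane-type MMPs, which act at the cell surface, were called 3, 4 and 3 times in young and 5 times in each middle-aged library. Mmp14 (ENSMUSG00000000957.11, chr14:54431612-54445364) had no TSS peak in young 1, the deepest library, and ranked 74.1 and 35.5 in young 2 and 3. The middle-aged libraries had 63.0, 45.4 and 73.5, within the range of the young values. An intronic region of Mmp14 (chr14:54433500-54433843) was called in all 6, young 1 included, at ranks of 33.2 to 67.4. Mmp17 had the highest mean rank of the MMP start sites called everywhere, 72.8, with 77.8, 84.0 and 34.8 in young and 87.1, 81.5 and 71.7 in middle-aged libraries (p = 0.6 by a two-sided exact permutation test). Only young 3 stood low.

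Mmp24 (ENSMUSG00000027612.7, chr2:155775342-155818366) was called in young 3 alone of the young libraries, at rank 1.81, and in all 3 middle-aged ones at 38.4, 6.84 and 36.1. Its peaks held 10 to 20 reads at the summit. Mmp15 was called in 4 libraries, Mmp16 in 5 at ranks no higher than 13.4, and Mmp25 in middle-aged 2 only. Of the other MMPs, Mmp28 was called in 5 libraries, Mmp19 in 3, Mmp23 in 2 and Mmp27 in 1, and Mmp12, Mmp20 and Mmp21 in none.

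Among the ADAMTS proteases, the proteoglycanases that cut aggrecan and versican were open at few start sites. Adamts4 and Adamts5, the main aggrecanases of cartilage, had no TSS peak in any library. The nearest called region to a start site of Adamts4 (ENSMUSG00000006403.13, chr1:171250421-171260637) was 2935 bp away and called in all 6 libraries. For Adamts5 (ENSMUSG00000022894.6, chr16:85856173-85901828) it was 97270 bp away, and the nearest one called in all 6 was 615953 bp away. Adamts1 (ENSMUSG00000022893.14, chr16:85793827-85803113), its neighbour on the same strand, ranked 33.1 and 63.1 in young 1 and 2, was absent from young 3, and ranked 49.1, 62.4 and 53.1 in the middle-aged libraries. The Adamts1 values overlapped between the ages, and its summits lay in an intron, 587 to 672 bp downstream of an annotated internal start site at 85801481. A separate region at the start at the 5′ end of Adamts1 (chr16:85803036-85803301) was called only in young 2 and middle-aged 3, at ranks of 3.87 and 24.6. Adamts20 was called in 5 libraries, in each at an internal start site, Adamts9 in 3, Adamts15 in 1 and Adamts8 in none.

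The procollagen N-proteinases, which remove the amino-terminal propeptide of fibrillar collagens, were all called in at least 2 libraries. Adamts3 was called in all 6, at ranks of 12.8, 46.7 and 12.9 in young and 20.5, 32.8 and 34.1 in middle-aged libraries (p = 0.8 by a two-sided exact permutation test). In middle-aged 2 the peak counted lay in an intron near a second start. Adamts2 was called in 5 libraries and Adamts14 in 2. Of the enzymes that cut cartilage oligomeric matrix protein, Adamts7 ranked 69.0, 79.5 and 5.29 in young and 68.8, 69.8 and 78.1 in middle-aged libraries (p = 0.8 by a two-sided exact permutation test), so that young 3 alone was low, with its summit nearer to a second start. Adamts12 was called in 3 libraries at ranks no higher than 20.5.

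Adamts13 (ENSMUSG00000014852.16, chr2:26973416-27009628) encodes the protease of von Willebrand factor. It was called in young 3 alone of the young libraries, at rank 4.46, and in middle-aged 1, 2 and 3 at 33.5, 11.8 and 31.4. All 3 middle-aged values were above the single young one, which allows no comparison of the groups. None passed rank 50, and the summits held 11 to 19 reads.

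The other ADAMTS genes split evenly, with Adamts6, Adamts10 and Adamts17 called in all 6 libraries and Adamts16, Adamts18 and Adamts19 in none. Adamts6 had the highest mean rank of the 9 genes called everywhere, 86.9, with 87.3, 86.6 and 87.4 in young and 81.4, 89.2 and 89.6 in middle-aged libraries (p = 1 by a two-sided exact permutation test). Its summit lay −850 to −829 bp from the start site, so that it was called with a window of 1000 bp but not with a narrower one of 500 bp. Adamts10 (ENSMUSG00000024299.17, chr17:33524204-33553782), a protease of the fibrillin microfibrils, ranked 10.1, 54.2 and 37.02 in the young lists and 63.4, 56.1 and 70.1 in the middle-aged ones. Every middle-aged value was above every young one, by as little as the gap between young 2 and middle-aged 2. The means were 33.8 ± 22.2 (SD, n = 3) and 63.2 ± 7.0 (SD, n = 3), a difference of 29.4 points (p = 0.1 by a two-sided exact permutation test, the lowest it can give here). The difference was 17.6 points without young 1 and 39.6 points without young 2. With ranks among genes called everywhere it was 2.94 points, and limma gave an adjusted p of 0.855.

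Adamts17 (ENSMUSG00000058145.16, chr7:66839735-67153171), a protease related to Adamts10 in its known links to connective tissue disorders, ranked 72.2, 60.1 and 37.1 in young and 82.9, 73.2 and 73.8 in middle-aged libraries. Again no values overlapped, with young 1 close to middle-aged 2. The means were 56.5 ± 17.8 (SD, n = 3) and 76.6 ± 5.41 (SD, n = 3), a difference of 20.2 points (p = 0.1 by a two-sided exact permutation test, the lowest it can give here). It was 10.5 points without young 3 and 6.47 points with ranks among genes called everywhere, and limma gave an adjusted p of 0.882.

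The 4 inhibitors ran from a start site called in all 6 libraries to one called in none. Timp2 (ENSMUSG00000017466.9, chr11:118301069-118355740), which inhibits MMPs and also takes part in the activation of Mmp2, ranked 82.7, 82.2 and 57.2 in young and 69.9, 83.2 and 86.5 in middle-aged libraries. The groups overlapped and young 3 was lowest. The means were 74.0 ± 14.6 (SD, n = 3) and 79.9 ± 8.76 (SD, n = 3), a difference of 5.81 points (p = 0.5 by a two-sided exact permutation test). The difference was −5.98 points with ranks among genes called everywhere (limma adjusted p = 0.915) and −2.60 points without young 3, so its direction was not settled.

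Timp1 (ENSMUSG00000001131.11, chrX:20870166-20874735), an inducible inhibitor of most secreted MMPs, ranked 16.1 and 14.9 in young 1 and 2, was not called in young 3, and ranked 52.7, 23.9 and 50.3 in middle-aged 1, 2 and 3. Every middle-aged value was above both young ones, with no test since the gene was not called in all libraries. Without young 3, 32.8% of all genes called in the remaining libraries had such a gap. Timp3 (ENSMUSG00000020044.13, chr10:86300372-86349506), which binds the matrix and also inhibits several ADAMTS proteases, was called in young 2 alone of the young libraries, at rank 42.4. In middle-aged 1, 2 and 3 it ranked 36.9, 38.5 and 41.4, all slightly below the one young value. These calls came from 2 start sites. The region at the first (chr10:86300294-86300646) was called in young 2 and middle-aged 3, so that start did not differ in presence between the ages. The region at the second (chr10:86302795-86303071) was called in middle-aged 1 and 2 and in no young library, still a difference of 2 libraries. Timp4 (ENSMUSG00000030317.8, chr6:115241892-115252205) had no TSS peak, and the nearest region was 15755 bp away. Timp1, Timp3 and Timp4 each lie inside a synapsin gene on the opposite strand, namely Syn1, Syn3 and Syn2.

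The chromosome 9 group contains Mmp13, Mmp12, Mmp1b, Mmp3, Mmp10, Mmp8, Mmp27, Mmp20 and Mmp7 within 427 kb (chr9:7272514-7699585). It held 16 called regions, 3.75 per 100 kb against 2.81 over chromosome 9. By library there were 10, 12 and 7 in young and 12, 15 and 12 in middle-aged libraries. Most of these regions were not at a start site. Mmp13 had a TSS peak in all 6 libraries, Mmp8 in 5 and Mmp27 in 1, while 6 regions of the group were called in all 6. The strongest (chr9:7594931-7595627), in none of the 9 genes, ranked 92.1, 90.6 and 86.4 in young and 93.7, 94.8 and 93.6 in middle-aged libraries. The second lay in a coding exon of Mmp8 (chr9:7567263-7567752), 9052 bp from its start, at 80.1, 90.0 and 84.0 in young and 90.4, 86.4 and 90.1 in middle-aged libraries. Both ranked above the Mmp13 start site in every library.

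**Figure D4:**
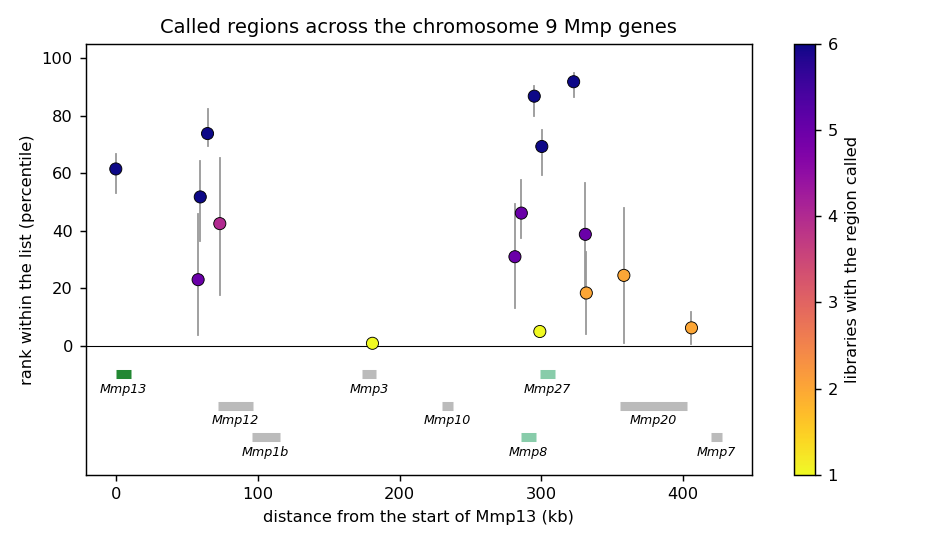
Called regions across the 9 Mmp genes of chromosome 9 by distance from the start of Mmp13 (kb), with the mean percentile rank over the libraries that called the region (points), its range (vertical lines) and the number of those libraries (colour); bars below the axis are the genes, dark green for a TSS peak in all 6 libraries, light green for some and grey for none. The 6 regions called in all 6 libraries include 1 at a start site, that of Mmp13, and the highest lies in no gene of the group.

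Over all 45 genes, from 1000 bp before the start to the end of the gene, there were 114 called regions. Of these, 23 (20.2%) were called in all 6 libraries, against 35.1% of all 63840 regions. Of the 23, 9 were at the gene's own start site and 14 were not. Besides those of Mmp2, Mmp8, Mmp9 and Mmp14, they lay in introns of Mmp23, Mmp27, Adamts2, Adamts16, Timp2 and Timp3 and at the end of Mmp28, where the region was also at the start of 1700020L24Rik. One region (1 of 114) was called in all 3 middle-aged and no young library, against 2.21% of all regions. It lay in an intron of Adamts9 (chr6:92827546-92827805) at ranks of 3.53, 36.5 and 26.2. None was called in all 3 young libraries alone, against 0.036% of all regions. The first count was between 3 and 8 when any one library was left out, a looser demand, and 4 with a reciprocal overlap of 50%. The share of all regions was not taken at these settings.

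The promoter windows of the genes were then compared by what was called. RefSeq windows of 300 bases, 250 before and 50 after the start, were matched by symbol for 31 of the 45 genes (34 windows), while 14 had no entry. A window was classed by the calls at any start of its gene. The CpG observed/expected ratio had a median of 0.718 in the 5 windows of genes called in all 6 libraries, 0.666 in the 18 of genes called in some and 0.0904 in the 11 of genes called in none. Over all genes these medians were 0.775, 0.579 and 0.207. Mmp13 was the exception among the 5, with a ratio of 0.0722 and 1 CpG.

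AP-1 letters occurred in 7 of the 34 windows (20.6%), against 7.0% of all windows. All 7 genes with a match belonged to the chromosome 9 group, and 6 of them had no TSS peak in any library. Mmp13 was the other. A TATA box stood in 10 windows (29.4%), against 12.1% of all windows, and in the window of each gene with the AP-1 letters. RUNX letters were found in 6 windows (17.6%), against 14.7% of all windows. The letters of EBF factors (TCCC and GGGA with 2 free bases between) were searched because Ebf3 was a gene of interest in the study. They stood in 1 window (2.94%), that of Mmp14, against 0.993% of all windows, and 1 window allows no comparison. Such matches describe the sequence and not binding, and neighbouring Mmp genes are related copies, so their windows are not independent.

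**Figure D5:**
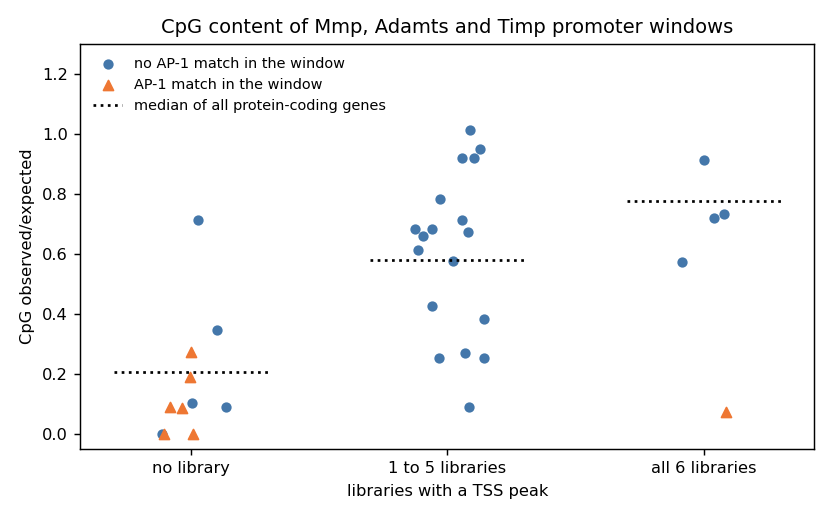
CpG observed/expected ratio of the 34 promoter windows of Mmp, Adamts and Timp genes (points) by the number of libraries with a TSS peak, with triangles for windows that hold the AP-1 letters and dotted lines for the median of all protein-coding genes (0.207, 0.579 and 0.775). The single triangle among genes called in all 6 libraries is Mmp13, with a ratio of 0.0722.

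Other genes of matrix proteolysis were counted for comparison, from a list of 47. In the young libraries 29, 27 and 21 of these were called at the TSS, against 32, 30 and 32 in the middle-aged ones. The mean shares were 54.6% and 66.7%, against 53.6% and 57.6% of all protein-coding genes. Of the 47, 21 (44.7%) were called everywhere and 12 (25.5%) nowhere, against 48.4% and 38.5% of all protein-coding genes. The ADAM sheddases, which release proteins from the cell surface, were called at 6 of 8 genes in each young library and at 7, 7 and 6 in the middle-aged ones, and Adam10 ranked between 96.3 and 98.4. Cathepsins and related proteases were called at 6 of 10 in each young and 7 of 10 in each middle-aged library. The proprotein convertases, which activate membrane-type MMPs, were called at 3, 3 and 2 of 4 in young and at 4 in each middle-aged library. The plasmin system was called at 3, 3 and 2 of 4 against 3 in each, the tolloids at 2, 3 and 1 of 5 against 3, 2 and 3, and the ADAMTS-like genes at 4, 2 and 1 of 6 against 2, 2 and 4. Other inhibitors and clearance receptors were called at 5, 4 and 3 of 10 against 6, 5 and 5. Among them Reck, a membrane-anchored inhibitor of MMPs, ranked 23.6 and 40.6 in young 1 and 2, was absent from young 3, and ranked 34.9, 63.7 and 57.7 in the middle-aged libraries.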

How the data were processed

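ATAC-seq was performed by the authors on cultured SSPCs. They aligned reads to mm10 with Bowtie2, removed duplicates with Sambamba and called peaks with MACS, separately for each library. Each deposited list gives a score, a fold enrichment (a linear ratio over local background), the −log10 of a p-value and the −log10 of a q-value, as the authors' caller wrote them. Shifting of reads for the transposase is not given in the sources used here. The authors compared peaks with DiffBind, which needs reads and was not repeated.

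TSSs were taken from GENCODE (mm10; 54361 sites, 21853 genes). Mmp1a, a polymorphic pseudogene there, was left out. Groups and replicate numbers came from the sample titles. The percentile rank used the highest-ranking TSS peak. Differences of single genes were tested by exact permutation over 20 assignments, and across 10569 genes by limma 3.58.1 (R 4.3.3) on normal scores of ranks, checked on simulated data. Python 3.11.15 was used for the rest. Relative depth was the lowest local background of a list, solved from fold and −log10 p under the caller's Poisson model. It gave whole reads at 100% of summits, within a relative tolerance of 0.002. Regions are peaks merged at 1 bp of overlap.

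Values in every library are given for Timp1 to Timp4, Mmp2, Mmp9, Mmp13, Mmp14, Adamts1, Adamts4 and Adamts5 and for genes that differed by 2 or more libraries, did not overlap in rank or passed limma. Others named with values in the text were chosen after seeing them. The members and lists were chosen with earlier results of these data known. Other settings tried were a minimum −log10 q of 5, equally long lists (27628 peaks), a TSS window of 500 bp, the summit within the window, ranks by fold enrichment, ranks among genes called everywhere, a replicate block, leaving out each library and, for regions, a reciprocal overlap of 50%. For limma, the within-list ranks, log2 fold enrichment and array weights were also tried.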

Additional observations from a re-analysis of the deposited data

How the results depend on the processing

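The number of genes with a TSS peak stayed higher in middle-aged libraries under each setting tried, by 0.333 genes with equally long lists and by 3.83 to 9.33 when 1 library was left out. Genes that differed by 2 or more libraries in the middle-aged direction numbered 3 at first, 6 with a −log10 q of at least 5, 1 with equally long lists (and 1 in the young direction) and 7 with lists thinned to the lowest background. The count was 0 to 13 when 1 library was left out, a range that follows from asking a difference of 2 libraries of groups of 2 and 3. The share of all genes that differed by as much was taken only at the first setting (2.78%). The counts at the other settings thus have no background to be read against. Genes with ranks that did not overlap numbered 2 at first, 1 with a −log10 q of at least 5 (28.2% of all genes), 0 with equally long lists (9.51%) or with ranks among genes called everywhere (5.86%), and 2 to 5 when 1 library was left out (32.8% to 58.8%). The median rank difference ran from 1.89 to 18 when 1 library was left out and reversed to −1.91 with ranks among genes called everywhere. On that scale Mmp13 was at −7.65, Timp2 at −5.98 and Adamts10 at 2.94. With equally long lists Mmp13 was at −9.82 and Timp2 at −3.00. When 1 library was left out Timp2 ran from −2.60, without young 3, to 10.8. The cause of the reversals was not tested. For limma, the within-list ranks gave 1 call (Ephx2), and leaving out 1 library gave 0 to 1 calls in each direction (Abhd13 and Arid3a, both without young 3). Regions specific to middle-aged libraries in the genes numbered 4 with a reciprocal overlap of 50% and 3 to 8 when 1 library was left out. No share of all regions was taken at these settings.

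With the replicate number as a replicate block, limma called 0 genes (657 at an unadjusted p under 0.05) and the median rank difference was 14.6, as without it. Libraries with the same number did not deviate together (correlations of 0.00316, 0.00921 and 0.000819 over 10569 genes). The labels do not say whether they were prepared together, and such correlations cannot settle it. The block changed no call. Peaks with few reads limit what can be said: several start sites held 10 to 20 reads at the summit, and a missing call in young 3 does not show closed chromatin.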

Other observations

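Of the 47 other matrix proteolysis genes, 4 had a TSS peak in at least 2 more middle-aged than young libraries (Serping1, Pcsk6, Adam33 and Ctsk) and 0 in the other direction, by presence alone and with no test. Over all protein-coding genes these shares were 2.78% and 0.11%. They were picked out after their values were seen. Ctsk, the collagen-degrading cathepsin of osteoclasts, had no TSS peak in any young library and ranked 35.5, 21.6 and 12.7 in middle-aged 1, 2 and 3. Pcsk6, a proprotein convertase, had none in young libraries and ranked 1.62, 14.9 and 11.5 in middle-aged ones, so its peaks were among the weakest of those lists. Serping1, the inhibitor of the first complement component, ranked 8.92 in young 1, was absent from young 2 and 3, and ranked 30.4, 57.7 and 32.9 in middle-aged libraries.

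The macrophage marker Csf1r went the other way. It had a TSS peak in young 2 and young 3, at ranks of 17.3 and 6.19, and in no middle-aged library, whereas Spi1, Adgre1, Cd68 and Tyrobp were called in all 6 libraries. Mep1a and Mep1b, which encode the meprin proteases of kidney and intestine, had no TSS peak in any library.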
